A study of Mus musculus with 12 samples.

Results

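Interleukin-1 (IL-1) family cytokines, their receptors and their inhibitors were followed in CD34+ and CD34- keratinocytes of mouse skin through 9 genes, Il1a, Il1b, Il18, Il33, Il1r1, Il1rap, Il1rl1, Il1r2 and Il1rn. Every probe set that the platform annotation tied to exactly 1 gene with such a symbol was taken, whatever its value. This gave 15 probe sets of 8 genes, out of 45037 probe sets and 18193 genes. For Il1rl1, the receptor chain for IL-33, the annotation table listed no probe set tied to it alone, and that gene was not analysed here. The genes were chosen by their roles and with earlier results of the same comparison, the CD34+ minus CD34- differences in log2 value, already known; Il33 and Il1r2 stood among its largest falls. The differences and calls of the 15 probe sets are therefore given as a description of these arrays, without p-values.

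Skin cells of mice labelled C57 DBA had been parted by magnetic sorting into CD34+ and CD34- fractions, CD34 being a glycoprotein on the surface of bulge keratinocytes in the hair follicle. Age and sex were not given in the sources used here, and no allele or agent is named in the labels. There were 3 isolations, each from a pool of at least 6 mice, and every RNA was hybridised to 2 Affymetrix arrays, which makes 6 arrays of CD34+ and 6 of CD34- cells. Which arrays come from the same RNA is not in the labels, so n = 6 counts arrays, stands for 3 RNA samples, and makes the p-values below too small wherever arrays of 1 RNA are alike.

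Cytokines of the IL-1 family are alarm signals of barrier tissues, and keratinocytes are a well-known store of them. IL-1 alpha and IL-33 act when a damaged cell releases them, while IL-1 beta and IL-18 are cut by an inflammatory caspase before release. A ligand-binding chain (IL1R1 for IL-1, ST2, the product of Il1rl1, for IL-33) joins with the shared accessory chain IL1RAP and signals through MYD88 to NF-kB. The system carries its own brakes: IL1R2 binds IL-1 but lacks the intracellular signalling domain and so acts as a decoy, and IL1RN, the IL-1 receptor antagonist, occupies IL1R1 without activating it.

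Facts of the whole array set bear on every value. Cd34 itself read 9.14 to 10.58 in CD34+ and 2.95 to 3.71 in CD34- arrays, and the keratinocyte keratins Krt5 (11.63 to 12.81 against 12.87 to 13.46) and Krt14 (11.05 to 12.60 against 12.83 to 13.49) were high in each. For Actb, the 3' control probe set read higher than the 5' one, a measure of RNA quality, by 3.95 to 5.65 on the log2 scale in CD34+ and 1.82 to 3.24 in CD34- arrays. For Gapdh this gap was 3.66 to 4.63 in CD34+ and 3.10 to 3.57 in CD34- arrays. Neither gap overlapped between the fractions, so RNA quality and fraction cannot be told apart here. CD34+ arrays 1, 3 and 5 stood apart by a narrower spread over probe sets (SD 1.92 to 2.07, against 2.19 to 2.32 on the other arrays). The part of RNA quality or of the narrower spread in the results was not tested. Results are given with and without those 3 arrays. The CD34+ arrays 2, 4 and 6 that then remain still had Actb gaps of 3.95 to 5.65. In RNA of whole fractions, fewer cells of a type and less RNA per cell cannot be told apart.

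All values are log2 values made with RMA, on which a difference of 1 is a 2-fold change, and differences are CD34+ minus CD34-. A probe set was called when its limma adjusted p, over all 45037 probe sets, was under 0.05. Of all calls 64.6% were lower in CD34+ cells (6265 against 3439). That share was 58.3% after quantile normalization (5421 against 3876) and 52.8% without CD34+ arrays 1, 3 and 5 (3702 against 3316). It was 78.9% with median-centred arrays (7455 against 1988), which moved the median difference of all genes from 0.04 to -0.06. Of the 15 probe sets 7 were lower in CD34+ cells and 0 higher, where 13.9% of all probe sets were called lower and 7.64% higher. The same 7 did not overlap between the fractions, CD34+ arrays lying below, which held for 6.86% of all probe sets. Leaving out CD34+ arrays 1, 3 and 5, 7 were again lower and 0 higher (8.22% of all probe sets were then lower). Since the comparison that chose the genes is the same, nothing is read from these shares. Taking for each gene its probe set with the highest mean, 5 of 8 genes were lower and 0 higher, where 17.5% of all genes were lower and 7.73% higher. The median difference was -1.18 against 0.04 over all genes, and for the same reason nothing is read from these values. The 5 lower genes were Il33, Il1r2, Il1rap, Il1r1 and Il1rn, and Il1a, Il1b and Il18 were not called.

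**Figure D1:**
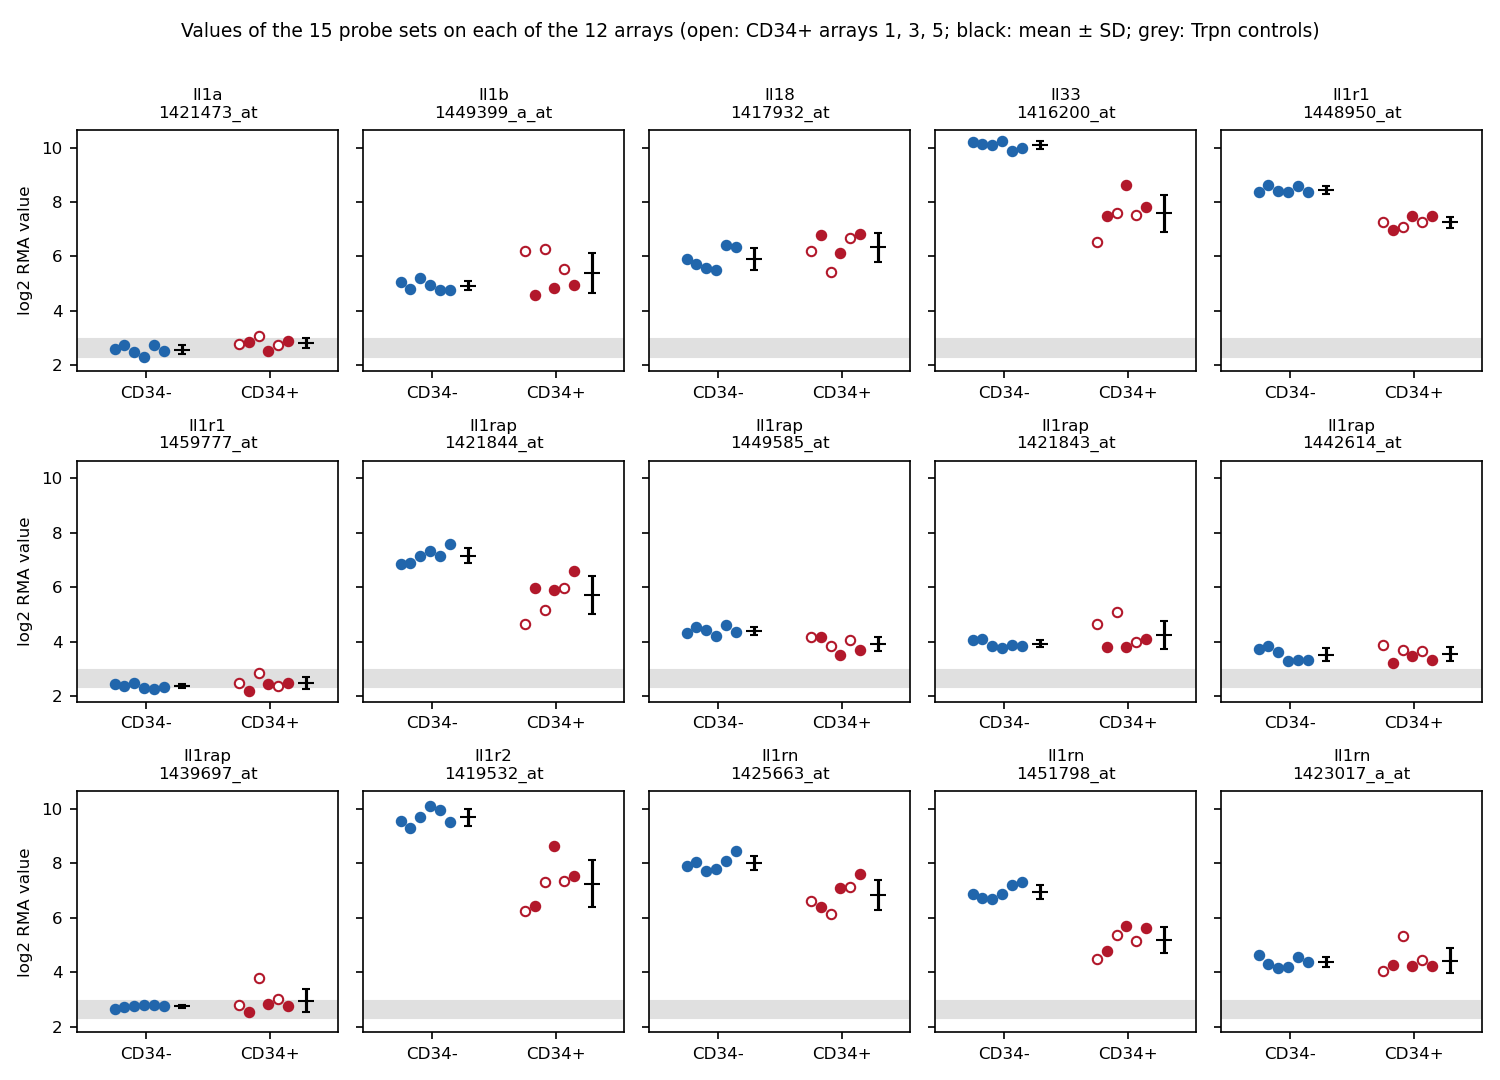
Log2 RMA values (vertical axes) of each of the 15 probe sets on each CD34- (blue) and CD34+ (red) array, with means and SD in black over 6 arrays; open points are CD34+ arrays 1, 3 and 5, and the grey band is the range of the Trpn control probe sets (2.31 to 2.95). Il33, Il1r2, 1 probe set of Il1r1, 2 of Il1rap and 2 of Il1rn show no overlap between the fractions.

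The starts of Il33 and Il1r2, the genes with the largest differences, are shown because these are the regions from which the transcripts begin. RefSeq (GRCm38.p6) promoter windows run from 250 bases before to 50 bases after an annotated start, and all 9 gene symbols had at least 1 window. They were searched on both strands for TGANTCA (the AP-1 site), TATAAA (the TATA box), CACGTG (an E-box) and the NF-kB consensus. Matches are in capitals in the 3 windows, which lie at chr19:29924863-29925162 and chr19:29945540-29945839 for Il33 and at chr1:40085843-40086142 for Il1r2, all on the plus strand.
Il33, upstream start: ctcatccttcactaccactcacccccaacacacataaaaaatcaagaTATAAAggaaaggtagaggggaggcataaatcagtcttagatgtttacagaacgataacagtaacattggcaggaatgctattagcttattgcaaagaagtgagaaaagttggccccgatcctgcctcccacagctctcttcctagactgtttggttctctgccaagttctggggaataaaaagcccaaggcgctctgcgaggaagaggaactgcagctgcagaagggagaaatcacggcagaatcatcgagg
Il33, downstream start: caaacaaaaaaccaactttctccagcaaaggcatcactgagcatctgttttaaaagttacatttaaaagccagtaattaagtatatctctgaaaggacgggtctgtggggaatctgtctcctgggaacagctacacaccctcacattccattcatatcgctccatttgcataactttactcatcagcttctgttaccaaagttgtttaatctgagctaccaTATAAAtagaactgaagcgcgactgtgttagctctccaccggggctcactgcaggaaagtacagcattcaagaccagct
Il1r2: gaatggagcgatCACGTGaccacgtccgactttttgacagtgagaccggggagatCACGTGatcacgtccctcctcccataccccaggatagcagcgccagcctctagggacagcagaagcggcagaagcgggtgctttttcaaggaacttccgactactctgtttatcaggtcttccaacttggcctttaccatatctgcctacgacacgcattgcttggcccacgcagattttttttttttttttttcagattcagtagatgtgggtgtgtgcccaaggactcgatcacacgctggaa
In the downstream window of Il33, TATAAA begins 29 bases before the start, and in the upstream window 203 bases before it. The Il1r2 window holds CACGTG 238 and 195 bases before its start and no TATA box letters. The letters TATAAA stand in 13.6% of all 32851 windows and CACGTG in 7.15%. The windows of Il1a and Il1b, which were not called, hold TATAAA 32 and 31 bases before the start. TGANTCA, which 7.81% of windows hold, was found in the Il1a window and in 1 of 3 windows of Il1rn, and the NF-kB consensus, in 5.80% of windows, in none of the 14 windows of these genes. No 2 matches of different motifs overlapped. These are matches of letters only, and the array does not tell which start was used.

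Among the ligands, Il33 differed most. Its probe set read 9.86, 10.11 and 10.25 (lowest, median and highest) on the CD34- arrays and 6.52, 7.54 and 8.61 on the CD34+ arrays. Every CD34+ array lay below every CD34- array, with 1.25 between the nearest ones, and the CD34- arrays were the tighter group. The means were 7.58 ± 0.67 (SD, n = 6) and 10.08 ± 0.15, a difference of -2.50 (SE 0.25), so the level was 5.66-fold lower in CD34+ cells. CD34+ array 4 held the highest value of its fraction and array 1 the lowest. The difference was -2.12 without CD34+ arrays 1, 3 and 5, and -2.29 to -2.71 on leaving out single arrays.

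Il1a, the other ligand kept inside the cell until damage, was at the low end of the scale. Its probe set read 2.31 to 2.75 in CD34- and 2.51 to 3.06 in CD34+ arrays. The 3 probe sets of the Trpn control, a bacterial gene with no counterpart in mouse RNA, read 2.31 to 2.95 on these arrays, and 11 of the 12 values of Il1a were no higher than their highest reading. The difference of 0.23 (SE 0.11) was therefore one between values near the floor, and it was not called with 12 arrays. It was called higher, at 0.29, without CD34+ array 4.

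Il1b, which depends on cleavage, read 4.77, 4.87 and 5.19 in CD34- and 4.57, 5.25 and 6.28 in CD34+ arrays. The fractions overlapped, and the spread in CD34+ cells (SD 0.73 against 0.18) came with the 3 arrays that stood apart. CD34+ arrays 1, 3 and 5 read 6.19, 6.28 and 5.55, while arrays 2, 4 and 6 read 4.57, 4.84 and 4.95, within 0.20 of the lowest CD34- array or above it. The difference was 0.47 (SE 0.27) with 12 arrays and -0.14 without those 3. It was called, as higher, when the means of arrays 1-2, 3-4 and 5-6 were compared, where each mean held 1 of those 3 arrays.

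Il18 read 5.49, 5.81 and 6.43 in CD34- and 5.43, 6.42 and 6.81 in CD34+ arrays. The CD34+ values spanned the whole CD34- range, and CD34+ array 3 lay below all CD34- arrays. The difference was 0.42 (SE 0.24), was not called, and was 0.65 without CD34+ arrays 1, 3 and 5.

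**Figure D2:**
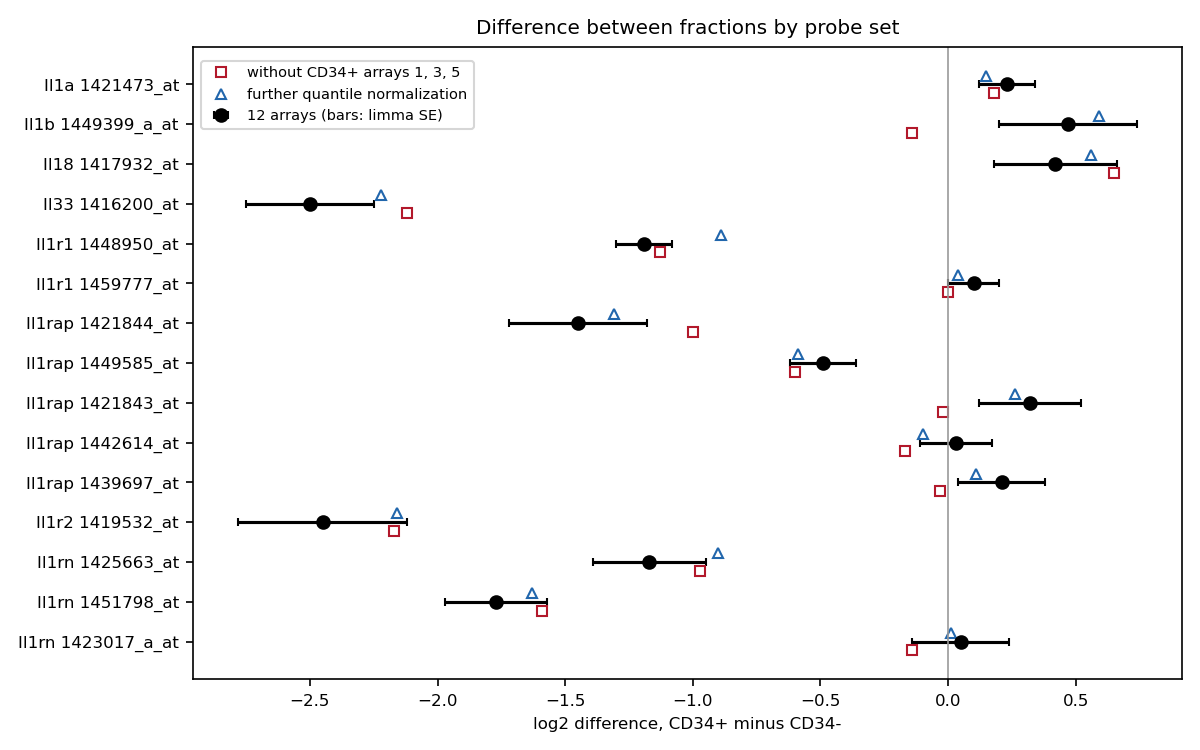
Log2 difference (horizontal axis, CD34+ minus CD34-) of each of the 15 probe sets from 12 arrays (black, bars are limma standard errors), without CD34+ arrays 1, 3 and 5 (squares) and after a further quantile normalization of the arrays (triangles). The 7 called probe sets lie left of 0 in all 3 settings, and those of Il1b, 3 of Il1rap and 1 of Il1rn change side without the 3 arrays.

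The decoy receptor Il1r2 nearly matched Il33 in size. Its probe set read 9.31, 9.64 and 10.11 in CD34- and 6.25, 7.33 and 8.63 in CD34+ arrays. The fractions did not overlap, and the nearest arrays lay 0.68 apart. The means were 7.25 ± 0.86 (SD, n = 6) and 9.69 ± 0.30, a difference of -2.45 (SE 0.33), or 5.46-fold lower in CD34+ cells. CD34+ array 4 was again the highest of its fraction, and arrays 1 and 2 were the lowest. Without CD34+ arrays 1, 3 and 5 the difference was -2.17.

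The signalling receptor Il1r1 was lower too, with the smallest standard error among the 7 called probe sets. Probe set 1448950_at read 8.35, 8.37 and 8.63 in CD34- and 6.97, 7.25 and 7.50 in CD34+ arrays. All arrays of each fraction lay within 0.53 of each other, 0.85 parted the fractions, and the difference was -1.19 (SE 0.11), or 2.28-fold lower. It was -1.13 without CD34+ arrays 1, 3 and 5. The other probe set of Il1r1, 1459777_at, read 2.19 to 2.86 on all 12 arrays, within or below the Trpn range, and gave no usable comparison.

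Il1rap, the accessory chain shared by the receptors for IL-1 and IL-33, had 5 probe sets that did not behave alike. The brightest, 1421844_at, read 6.85, 7.13 and 7.60 in CD34- and 4.64, 5.92 and 6.59 in CD34+ arrays. These fractions did not overlap, and the difference was -1.45 (SE 0.27), or 2.74-fold lower, and -1.0 without CD34+ arrays 1, 3 and 5. Probe set 1449585_at was lower by less, from 4.40 ± 0.15 to 3.91 ± 0.27 (SD, n = 6), a difference of -0.49 (SE 0.13), with only 0.01 between the nearest arrays of the fractions. The other 3 were not called. Probe set 1421843_at read 3.76 to 4.11 in CD34- and 3.79 to 5.09 in CD34+ arrays, with a difference of 0.32, and 1442614_at had a difference of 0.03. Probe set 1439697_at was at or below the Trpn readings on 10 of 12 arrays. The probe sequences were not used here, so the probe sets could not be set against the membrane-bound and soluble forms that Il1rap is known to make.

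Il1rn, the receptor antagonist, was lower by 2 of its 3 probe sets. Probe set 1425663_at read 7.72, 7.98 and 8.47 in CD34- and 6.15, 6.86 and 7.62 in CD34+ arrays, a difference of -1.17 (SE 0.22), or 2.26-fold lower. The fractions came within 0.10 of each other, CD34+ array 6 being the nearest. Probe set 1451798_at read 6.70, 6.89 and 7.31 in CD34- and 4.47, 5.26 and 5.69 in CD34+ arrays. Here the fractions lay 1.02 apart, and the difference was -1.77 (SE 0.20), or 3.41-fold lower. The third, 1423017_a_at, overlapped (4.16 to 4.63 against 4.06 to 5.32) with a difference of 0.05. Without CD34+ arrays 1, 3 and 5 the differences were -0.97, -1.59 and -0.14.

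Signalling receptor, accessory chain, decoy and antagonist were thus all lower in the same fraction by their brightest probe sets. By these, Il1r1 had a fold of 2.28, Il1rn of 2.26 and Il1rap of 2.74, while the decoy Il1r2 had 5.46. The other probe sets of Il1rn gave a fold of 3.41 and a difference of 0.05, and those of Il1rap a smaller fall or none. Each fold belongs to its own probe set, and no level was compared between genes. Each of the 7 called probe sets stayed called when any of the 12 arrays was left out, after a further quantile normalization and with median-centred arrays. The genes were chosen with the comparison of these same arrays known, so nothing is read from the repeated calls. With means of arrays 1-2, 3-4 and 5-6, 3 against 3, all 7 were called as well.

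Il1r2 and Il1r1 share a place in the genome with other receptor genes of the family, which the choice of the genes did not use. Il1rap lies apart from them, on chromosome 16. In RefSeq (GRCm38.p6) Il1r2, Il1r1, Il1rl2, Il1rl1, Il18r1 and Il18rap follow each other on chromosome 1 with no other protein-coding gene between them. Il1r2, at -2.45, and Il1r1, at -1.19, begin the row. Il1rl2, which encodes the receptor chain for IL-36, fell by 1.16 (SE 0.31, limma adjusted p = 0.0163), and Il18r1, the IL-18 binding chain, fell by 0.63 (SE 0.12, limma adjusted p = 0.00265). Il18rap, the partner chain for IL-18 at the far end, did not pass (0.09, limma adjusted p = 0.420), nor did the flanking genes Map4k4 (-0.08, adjusted p = 0.760), Slc9a4 (0.12, adjusted p = 0.314) and Slc9a2 (0.07, adjusted p = 0.631). The call of Il1rl2 was lost without CD34+ arrays 1, 3 and 5 (-0.51, limma adjusted p = 0.170), and its other probe set was at 0.09 (adjusted p = 0.746). Il18r1 remained lower without them (-0.49, limma adjusted p = 0.0255). The row was looked up after the values were known.

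**Figure D3:**
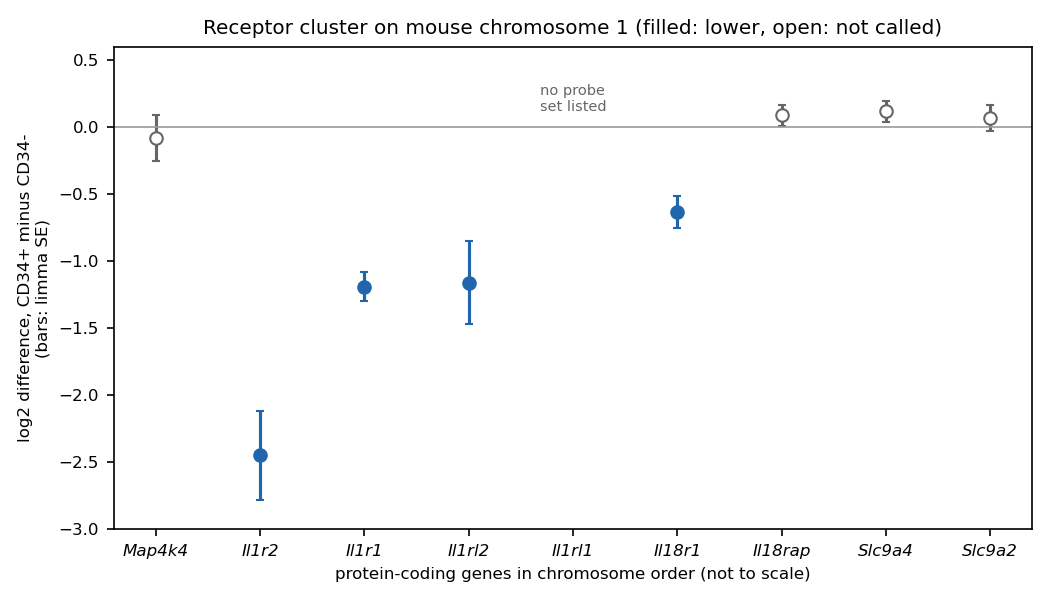
Log2 difference (vertical axis, CD34+ minus CD34-, bars are limma standard errors) of protein-coding genes of the receptor cluster on mouse chromosome 1, in chromosome order and not to scale, each by its brightest probe set. Il1r2, Il1r1, Il1rl2 and Il18r1 are lower, and Il18rap and the flanking genes lie near 0; a predicted gene beyond Map4k4, with no probe set listed for it, is left out.

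Il1rn lies at the end of a second row, on chromosome 2, behind the genes of IL-36 and related ligands. Those ligands are cytokines of the epidermis, and none of the 5 was called with 12 arrays, where 17.5% of all genes were called lower and 7.73% higher. The IL-36 agonists were at 0.33 for Il36a (Il1f6 in RefSeq, limma adjusted p = 0.110), 0.38 for Il36b (Il1f8, adjusted p = 0.149) and 0.04 for Il36g (Il1f9, adjusted p = 0.839). Il1f10 was at 0.19 (adjusted p = 0.352). Il36rn (Il1f5), the antagonist of the IL-36 receptor, read 6.40 to 7.13 in CD34- and 5.87 to 6.79 in CD34+ arrays, and its difference of -0.51 (SE 0.17) just missed the threshold (limma adjusted p = 0.0530). It passed under several other settings, with adjusted p from 0.0163 to 0.0470, and did not without CD34+ arrays 1, 3 and 5 (-0.25, adjusted p = 0.440). Of the genes flanking this row, Hnmt (-1.39, limma adjusted p = 0.00011) and Psd4 (-0.52, adjusted p = 0.00117) were lower. Pax8 (0.26, adjusted p = 0.156) was not called. Beside Il1a and Il1b on the same chromosome, Slc20a1 (-0.85, limma adjusted p = 0.000934) and Ckap2l (-0.85, adjusted p = 0.00265) were lower, and Sirpa (-0.24, adjusted p = 0.395) was not called.

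Of 7 other receptors and the IL-18 binding protein, 2 fell and 0 rose, where 17.5% of all genes were lower and 7.73% higher. The 2 were Il1rl2 and Il18r1, and the median difference was 0.04, as over all genes. Il18bp, which binds and blocks IL-18 outside the cell, was at 0.22 (limma adjusted p = 0.105). Sigirr, a receptor of the family known as a damper of its signals, was at -0.05 (adjusted p = 0.795). Leaving out CD34+ arrays 1, 3 and 5, 1 fell, where 9.89% of all genes were then lower and 8.39% higher.

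Signalling genes below the receptors were lower or not called. Of 30 measured, 10 fell and 0 rose, where 17.5% of all genes were lower and 7.73% higher, and the median difference was -0.44 against 0.04 over all genes. The largest fall was that of Irak3, an IRAK family member known as a brake on the pathway, from 7.15 ± 0.07 to 5.72 ± 0.48 (SD, n = 6), a difference of -1.43 (SE 0.18, limma adjusted p = 0.000150). Its arrays did not overlap, and its other probe set was at -0.11 (adjusted p = 0.643). Relb, an NF-kB subunit, fell by 1.11, the adaptor Ecsit by 0.89 and the JNK kinase gene Mapk9 by 0.82. A second probe set of Mapk9 fell by 0.38 (limma adjusted p = 0.00554), and the third, at -0.06, did not pass (adjusted p = 0.783). Myd88, the adaptor next to the receptors, did not pass (-0.58, SE 0.22, limma adjusted p = 0.0785). Without CD34+ arrays 1, 3 and 5 the counts were 4 lower and 1 higher (9.89% and 8.39% of all genes), with a median of -0.15. Relb was then not called (-0.58, limma adjusted p = 0.0928), while Irak3 was (-1.21, adjusted p = 0.000904). The 1 higher gene was Sharpin (adjusted p = 0.0287), looked up after its value was seen.

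Genes that process or release the ligands went in both directions. Of 23 measured, 6 fell and 1 rose (17.5% and 7.73% of all genes), with a median of 0.00. Casp4, the inflammatory caspase of the non-canonical inflammasome, fell from 6.72 ± 0.27 to 5.20 ± 0.54 (SD, n = 6), a difference of -1.52 (SE 0.22, limma adjusted p = 0.000384), and Casp8 fell by 1.29. Casp1, which cuts pro-IL-1 beta and pro-IL-18, did not pass (-0.26, SE 0.18, limma adjusted p = 0.298) and was at 0.07 without CD34+ arrays 1, 3 and 5. The calpains, proteases known to cut pro-IL-1 alpha, moved apart: Capn1 fell by 1.46 (SE 0.25, limma adjusted p = 0.00114) and Capn2 rose by 1.40 (SE 0.23, limma adjusted p = 0.000885). Each did so without overlap between the fractions, at 5.71 to 7.26 against 7.54 to 8.18 for Capn1 and 7.0 to 8.74 against 6.49 to 6.87 for Capn2. The list had 4 lower and 2 higher without CD34+ arrays 1, 3 and 5, among them Capn1 (-1.05) and Capn2 (1.69).

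Among genes known to be induced by IL-1 through NF-kB, 8 of 39 fell and 1 rose, near the 17.5% of all genes that were lower, and the median of 0.04 was that of all genes. The falls were led by Tnfaip3, a deubiquitinase that restrains NF-kB, at 8.15 ± 0.47 against 9.68 ± 0.70 (SD, n = 6), a difference of -1.53 (SE 0.30, limma adjusted p = 0.00293). Irak3, which stands in this list too, the adhesion molecule Icam1 (-1.18) and the prostaglandin E synthase Ptges (-0.99, with its other probe sets at -0.77 and -0.85) followed. The other probe set of Tnfaip3 was at -0.04 (adjusted p = 0.827). The 1 gene that rose was Fgf7 (0.34, limma adjusted p = 0.0483), which was not among the genes set for naming and lost its call without CD34+ arrays 1, 3 and 5 (adjusted p = 0.345). Without those arrays 6 fell and 1 rose, the latter Ptgs2 (adjusted p = 0.0343), looked up after its value was seen. Over the 5 lists together, 25 of 103 genes fell and 2 rose with 12 arrays, 28 fell and 1 rose with arrays centred on their medians, 19 fell and 5 rose after quantile normalization, and 14 fell and 4 rose without the 3 arrays. Of all genes 17.5% were lower and 7.73% higher with 12 arrays, and 9.89% and 8.39% without the 3.

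**Figure D4:**
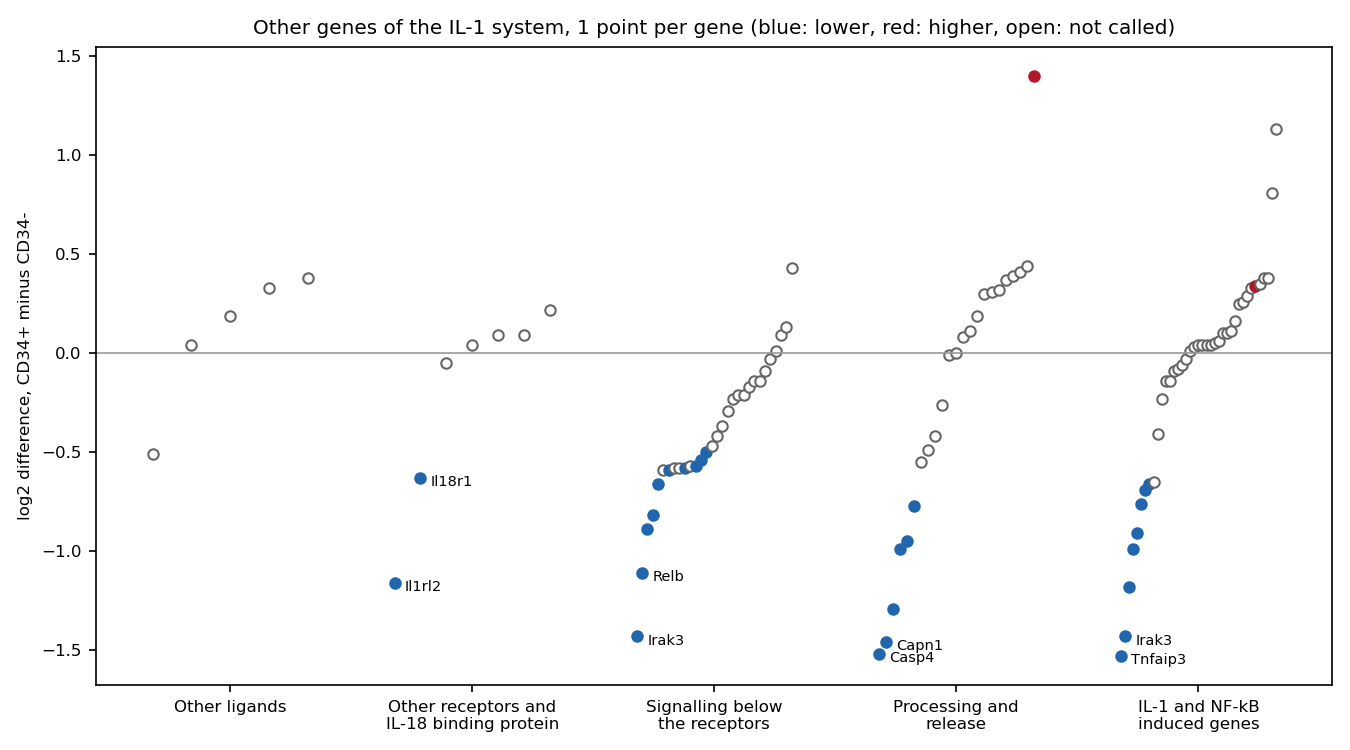
Log2 difference (vertical axis, CD34+ minus CD34-) of each measured gene in 5 lists of the IL-1 system, by its brightest probe set, in rising order within a list; blue points were called lower, red points higher and open points not called. Il1rl2 and Il18r1, Irak3 and Relb, Casp4 and Capn1, and Tnfaip3 and Irak3 carry the largest falls of their lists, and Capn2 is the highest point.

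Cells other than keratinocytes can express these genes, so the levels of their markers are set beside them. The counts of called markers stand against 17.5% of all genes lower and 7.73% higher with 12 arrays. The summed linear level of 10 measured T cell markers was 471 to 1051 in CD34+ and 1891 to 3657 in CD34- arrays, without overlap, and 10 of the 10 were lower. Ptprc (-2.80) and Thy1 (-1.90) were the brightest. Langerhans and myeloid markers summed to 821 to 1020 against 1113 to 2185, with 5 of 12 lower and 0 higher, H2-Eb1 falling by 0.73 and H2-Aa at -0.58 (limma adjusted p = 0.0708). Markers of innate lymphoid and regulatory T cells summed to 613 to 1026 against 1244 to 1577, with 3 of 9 lower and 1 higher. Linear sums follow the brightest genes, here Tnfrsf18 (-1.47) and Rora (-0.83), both lower. Il7r (-1.11) was lower too, and Klrg1 (0.40) was higher. Il2ra (-0.04), Ctla4 (-0.01), Icos (-0.08), Tnfrsf4 (-0.29) and Foxp3 (0.02), the last at the low end, were not called. These sums fell in the same fraction as Il33, Il1r2, Il1r1 and Il18r1, and their part in those differences was not tested.

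Other lists did not move that way, and their counts stand against the same 17.5% of all genes lower and 7.73% higher. Mast cell markers, with Hdc (0.54) and Gata2 (0.34) brightest, had 0 of 10 called and summed to 122 to 231 in CD34+ and 111 to 136 in CD34- arrays, Mcpt4 and Fcer1a lying at the low end. Neutrophil markers summed to 95 to 175 against 88 to 107, with 1 of 8 higher, and Elane (0.30) and Mpo (0.56) were brightest. Endothelial markers, with Eng (0.24) and Kdr (0.11) brightest, summed to 203 to 282 against 187 to 202, with 1 of 12 higher and Tek and Emcn at the low end. Dermal fibroblast markers summed to 1171 to 4994 against 779 to 1681, with 6 of 12 higher, and their brightest, Vim (0.68, limma adjusted p = 0.601) and Mmp2 (-0.20, adjusted p = 0.519), did not pass. Vim, which weighs most in this linear sum, read 6.73 to 11.77 in CD34+ and 7.28 to 10.05 in CD34- arrays. The high fibroblast sums were those of CD34+ arrays 1, 3 and 5, at 4994, 4868 and 2654, the arrays on which Il1b was high, while arrays 2, 4 and 6, at 1586, 1171 and 1312, lay inside the CD34- range. Without those 3 arrays 5 of the 12 fibroblast markers were higher, where 8.39% of all genes were. The part of the fibroblast markers in the Il1b values was not tested. Melanocyte markers summed to 1031 to 2103 against 360 to 460, with 2 of 7 higher and 1 lower. This sum follows its brightest gene, Mitf, with means of 10.15 in CD34+ and 7.01 in CD34- arrays, a rise of 3.13. Sox10 (0.49) was higher too, and Tyrp1 (-0.67) was lower. Dct (-0.36, limma adjusted p = 0.255), Pmel (-0.26), Tyr (0.40) and Mlana (-0.00) were not called.

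Among keratinocyte lists, most basal and upper follicle markers were lower in the CD34+ fraction with 12 arrays, while the sums of all 4 lists overlapped between the fractions. Of all genes 17.5% were then lower and 7.73% higher. Basal markers summed to 18351 to 30009 against 28168 to 42723, with 7 of 9 lower, Krt14 at -1.37 and Krt5 at -1.04. Upper follicle markers summed to 4892 to 11445 against 9500 to 13930, with 5 of 8 lower, Krt79 at -1.22 and Defb6 at -0.35 (limma adjusted p = 0.191). Suprabasal markers summed to 23941 to 35625 against 26929 to 39192, with 2 of 10 lower, and Krt10 (-0.16) and Sbsn (0.21) did not pass. Bulge markers summed to 11027 to 21085 against 9396 to 13857, with 10 of 11 higher and 0 lower, Nfatc1 rising by 1.41 and Krt15 at -0.29 (adjusted p = 0.109). The 10 include Cd34 (6.92), by which the cells were sorted, so its call was set by the sorting. Without CD34+ arrays 1, 3 and 5, 3 of 9 basal and 2 of 8 upper follicle markers were lower, where 9.89% of all genes were. The part of these shifts in the differences of the IL-1 genes was not tested.

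**Figure D5:**
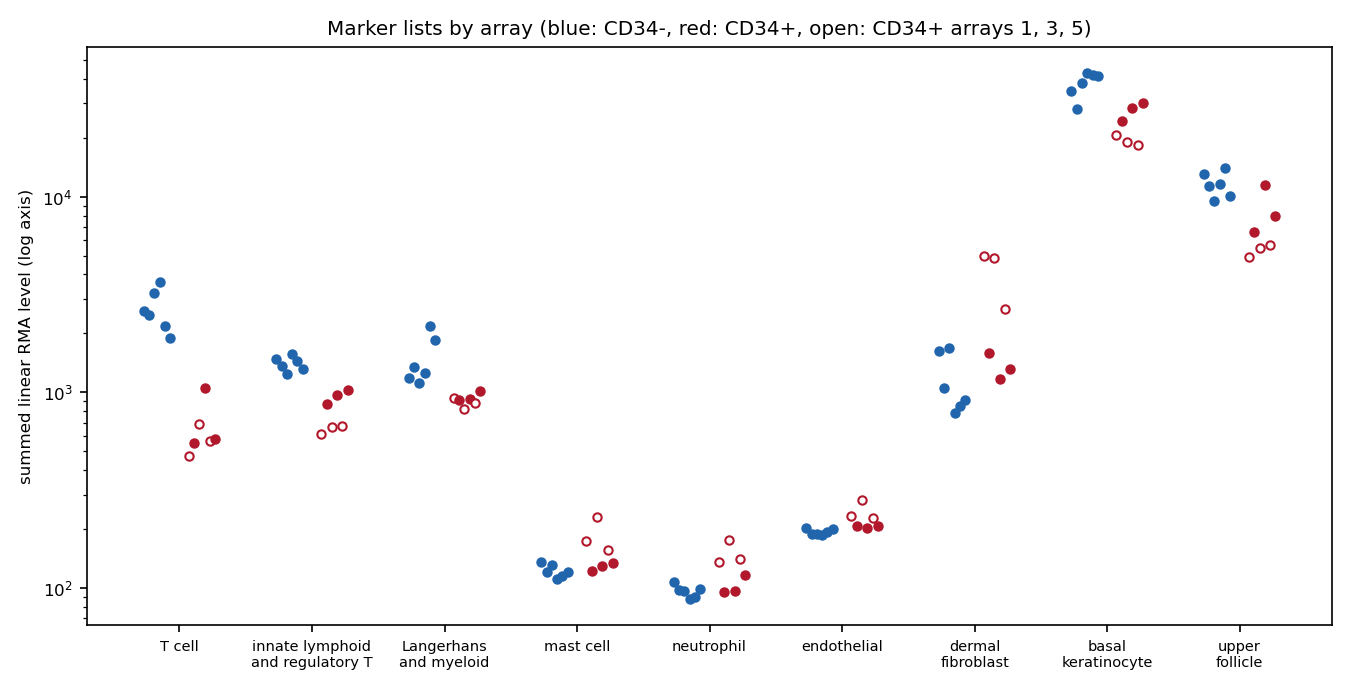
Summed linear RMA level (vertical axis, log scale) of 9 marker lists on each CD34- (blue) and CD34+ (red) array, with CD34+ arrays 1, 3 and 5 as open points. T cell markers, at 471 to 1051 against 1891 to 3657, do not overlap. Langerhans and myeloid markers and those of innate lymphoid and regulatory T cells do not overlap either, CD34+ arrays lying below. Endothelial markers do not overlap, with CD34+ arrays above. Mast cell and neutrophil markers stay low in each fraction.

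Genes whose profiles over the 12 arrays lay nearest to a member were found by the root mean square distance between log2 values centred on each gene's own mean. For Il33, whose own values spread by 1.33 around their mean on this measure, the nearest were Dock10 (0.26 away, difference -2.39), Nusap1 (0.28, -2.07) and Trgv4 (0.30, -2.37), the last a segment of the gamma T cell receptor. For Il1r2, with a spread of 1.36, the nearest were Smoc2 (0.20, -2.55), Slc6a4 (0.23, -2.38) and Fcgbp (0.31, -2.09). For Il1rn, with a spread of 0.71, Krt77 lay nearest (0.19, -1.23), a keratin of the suprabasal epidermis, before Pdgfb (0.21) and Adam8 (0.22). Il1r1 was nearest to Ascc1 (0.13), Larp1b (0.14) and Fam234b (0.16), and Il1rap to Lrrc1 (0.22), Pcgf5 (0.24) and Rgmb (0.24). Il18, with a spread of 0.48, had Lce1l (0.22), Atp12a (0.23) and Gadd45g (0.24) nearest. Il1b, with a spread of 0.54, had Ddc (0.15), Mc2r (0.15) and Rtn4ip1 (0.16). Il1a, near the floor with a spread of 0.20, had Gm15972 (0.08), Fabp1 (0.09) and Pon1 (0.09). These are descriptions of 12 arrays that share RNA in groups of 2, and genes with a like step between the fractions lie near each other on this measure.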

How the data were processed

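Expression was measured on 12 Affymetrix mouse arrays, 6 per fraction. The deposited table holds log2 values, made by the authors with RMA per the submitters' processing notes, whose version is not stated, and whether all arrays were normalized together is not given in the sources used here. RMA gives no detection call, and the number of arrays limits the precision. Of 45101 probe sets, 64 controls were left out. The platform annotation (symbols brought up to date with RefSeq by Entrez identifier) tied 34945 to 1 gene, 932 to several and 9160 to none listed.

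The 2 fractions entered limma (version 3.58.1, R 4.3.3) with lmFit, then eBayes, for two-sided tests (Benjamini-Hochberg adjustment over all 45037 probe sets, all 12 arrays, no block). Genes of lists stand by their probe set with the highest mean, and marker sums add up linear values. The fit was tested on simulated data in which all arrays were independent. These held no shared RNA and no arrays of narrower spread, so that test cannot tell how such features affect the calls here. The members and lists were chosen with earlier results of these data known. Of 113 pathway genes listed, 103 were measured. Named were every probe set of the members, up to 4 called genes per pathway list by size, 12 set receptor, ligand and adaptor genes, the 2 brightest markers per list and the 3 nearest profiles per member. Genes flanking the members on chromosomes 1 and 2, and further markers of some lists, were named in addition.

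Array numbers 1 to 6 occur in each fraction. Deviations of same-numbered arrays correlated at -0.24 to 0.49, and arrays of different numbers were not compared. This does not settle whether the numbers pair the samples, and the main fit used no pairs. No fit paired the fractions by isolation, which the labels do not give. The alternatives tried were means of arrays 1-2, 3-4 and 5-6, array number as a block, quantile normalization, median centring, leaving out arrays, a filter on low probe sets, 1 probe set per gene, trended and robust moderation, and array weights.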

Additional observations from a re-analysis of the deposited data

Results flagged for a closer look

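Among the 30 groups of 6 arrays (15 probe sets in each fraction), 1 held an array far from the rest, where chance gives about 1 in 20. On probe set 1423017_a_at of Il1rn, CD34+ array 3 read 5.32, the highest of its fraction, while the other CD34+ arrays read 4.06 to 4.46. The gap made up 0.681 of the range of the fraction, above Dixon's 95% critical value for 6 arrays. Without CD34+ array 3 the difference of this probe set was -0.13, and it was not called with or without it.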

How the results depend on the processing

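The 7 member probe sets called lower were 7 under all settings that tested all 15, and 5 of 8 with 1 probe set per gene. The genes were chosen with this comparison known, so nothing is read from that count. The count called higher was 0, and 1 with means of arrays 1-2, 3-4 and 5-6 (Il1b) and without CD34+ array 4 (Il1a), so 0 to 1 on leaving out single arrays. With the replicate block, array number as a term, members stood at 7 lower and 0 higher. For the 103 pathway genes, 25 fell, 14 without CD34+ arrays 1, 3 and 5, and 20 to 31 on leaving out single arrays. The count that rose was 2, and 6 with means of array pairs, 4 with the replicate block, 5 after quantile normalization, 1 with median centring, 4 without CD34+ arrays 1, 3 and 5, 1 among probe sets above the Trpn readings, 4 with trended and robust moderation and 5 with array weights. On leaving out single arrays it was 1 to 8, the highest without CD34+ array 4.

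Of 788 single values under other settings, 27 changed sign, all of them uncalled, and 13 gained and 2 lost a call (Il1rl2 and Relb without CD34+ arrays 1, 3 and 5). Without those arrays the values were -0.14 for Il1b, -0.02, -0.17 and -0.03 for Il1rap probe sets 1421843_at, 1442614_at and 1439697_at, -0.14 for Il1rn 1423017_a_at, 0.03 for Sigirr, -0.25 for Il1f9, -0.04 for Il1f10 and 0.07 for Casp1. Quantile normalization gave -0.10 for Il1rap 1442614_at, -0.01 for Il18rap and -0.03 for Il1f9. Median centring gave -0.07 for Il1rap 1442614_at, -0.05 for Il1rn 1423017_a_at, -0.01 for Il18rap and -0.06 for Il1f9. Array weights gave -0.09 for Il1rn 1423017_a_at. Leaving out single arrays, Il1rap 1442614_at lay at -0.04 to 0.10 and Il1rn 1423017_a_at at -0.13 to 0.13, Il1f9 at -0.02 to 0.15, and Sigirr reached 0.03. The cause was not tested. Values near the Trpn readings limit Il1a, Il1r1 1459777_at and Il1rap 1439697_at.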
